A study of Homo sapiens with 12 samples.

Results

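The transcripts of 8 enzymes of heme biosynthesis were followed in K562, a human erythroleukemia line in which the BCR-ABL1 fusion kinase is active and fetal and embryonic globins can be made. The members are the genes named ALAS1, ALAS2, ALAD, UROS, UROD, CPOX, PPOX and FECH, chosen by gene name, 8 of the 58735 genes listed. All 8 were among the 20821 genes that passed a filter on low counts. Cells were pretreated for 24 h with either DMSO, the solvent, or 0.1 µM nilotinib, an inhibitor of the ABL kinase. They were then either left as mock cultures or given 50 µM hemin for 24 h. Hemin is an oxidized form of heme that induces hemoglobin synthesis in this line. The 4 groups (DMSO or nilotinib in mock cultures, and DMSO or nilotinib in hemin cultures) held 3 biological replicates each. No group carried an engineered allele, and all came from this line, which is a leukemia and not a normal erythroid precursor. The sources differ on whether the mock libraries were collected when hemin was added or a day later. In a comparison of mock with hemin, the effect of hemin and that of time in culture therefore cannot be told apart. The same holds where the effects of nilotinib in mock and hemin cultures are compared, as the length of exposure to nilotinib may differ too.

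Library totals ran from 33457078 to 50506990 counts, so that 3 counts corresponded to 0.054 to 0.096 CPM, the count per 1000000 counts of a library. Levels are given as CPM scaled by trimmed mean of M-values (TMM) factors. Levels of different genes are compared only as CPM per kilobase of gene length. That length counts all annotated exonic bases of a gene, 9532 for UROS over 22 transcripts and 2134 for ALAS2 over 10. It can exceed the length of the transcripts present, so levels, ranks and shares across genes depend on the annotation too. Adjusted p-values are those of the quasi-likelihood test of edgeR, with the method of Benjamini and Hochberg applied over the 20821 genes tested, and a gene is said to have risen or fallen where that value is under 0.05. All 7 erythroid markers examined (GATA1, KLF1, TAL1, HBG1, HBG2, HBE1 and HBZ) averaged above 1 CPM in every group. Of 11 markers of other cell types, MS4A1, CD3E, CD8A, ELANE, MPO and ALB stayed under 1 CPM in every group. The other 5 exceeded 1 CPM in at least 1 group, with means of 32.5 to 63.0 CPM for EPCAM, 8.69 to 22.4 CPM for COL1A1, 4.0 to 15.2 CPM for PECAM1, 0.20 to 5.51 CPM for ITGAM and 0.21 to 9.40 CPM for CD14.

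Heme is assembled along a chain of enzymes that starts and ends in the mitochondrion. Aminolevulinate synthase joins glycine to succinyl-CoA and sets the pace of the pathway. It exists as the ubiquitous form ALAS1, which in liver is known to be held down by heme, and as the erythroid form ALAS2, whose loss causes X-linked sideroblastic anemia. In the cytosol ALAD builds porphobilinogen, UROS closes the tetrapyrrole ring and UROD trims its side chains. CPOX and PPOX carry out the oxidations that follow in the mitochondrion, and FECH inserts iron to give heme. Erythroid cells make far more heme than most cells because each globin chain binds it.

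The isozymes of the first step moved in opposite directions. ALAS1 (ENSG00000023330, GRCh38 chr3:52198086-52214327, plus strand) stood at 26.3, 29.7 and 29.5 CPM in mock DMSO replicates 1 to 3 and at 14.7, 13.2 and 10.9 CPM in mock nilotinib. It stood at 52.1, 63.5 and 51.2 CPM in hemin DMSO, and at 13.1, 15.5 and 17.0 CPM in hemin nilotinib. The 6 nilotinib libraries were thus the lowest of the 12, the hemin DMSO libraries were the highest, and only the nilotinib groups overlapped each other. Nilotinib lowered ALAS1 by 1.87 ± 0.16 (log2, SE) in the presence of hemin, which is 3.66-fold (edgeR adjusted p = 4.54e-08), and by 1.14 ± 0.15 in its absence, which is 2.20-fold (edgeR adjusted p = 1.99e-05). Hemin without nilotinib raised ALAS1 1.95-fold (log2 0.96 ± 0.15, edgeR adjusted p = 6.33e-05).

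ALAS2 (ENSG00000158578, GRCh38 chrX:55009055-55031064, minus strand) stood at 80.2, 160 and 163 CPM in mock DMSO and at 49.8, 58.6 and 43.4 CPM in hemin DMSO. It reached 2418, 3350 and 3221 CPM in mock nilotinib and 2728, 2319 and 1910 CPM in hemin nilotinib. Every nilotinib library was above every DMSO library, the hemin DMSO libraries were the lowest, and mock DMSO replicate 1 stood well under its group's other libraries. Nilotinib raised ALAS2 45.8-fold with hemin (log2 5.52 ± 0.28, edgeR adjusted p = 2.85e-10) and 22.3-fold without it (log2 4.48 ± 0.27, edgeR adjusted p = 3.67e-09). Hemin alone lowered it 2.65-fold (log2 -1.41 ± 0.24, edgeR adjusted p = 0.000134).

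The ratio of ALAS2 to ALAS1 is free of library scaling, since both genes are counted in the same library. Per kilobase, its log2 was 1.86, 2.68 and 2.72 in mock DMSO and 0.18, 0.13 and 0.01 in hemin DMSO. It was 7.61, 8.23 and 8.46 in mock nilotinib and 7.95, 7.47 and 7.06 in hemin nilotinib. Expressed as group means, ALAS2 exceeded ALAS1 5.34-fold in mock DMSO (log2 2.42 ± 0.48, SD, n = 3), 275-fold in mock nilotinib (8.10 ± 0.44) and 181-fold in hemin nilotinib (7.50 ± 0.45). In hemin DMSO the isozymes were nearly level at 1.08-fold (0.11 ± 0.09). Across 5 comparisons between groups, a two-sided exact permutation test gave p = 0.1 for the 4 whose groups did not overlap (0.125 after Benjamini-Hochberg adjustment), the smallest p that 3 libraries against 3 allow. For hemin against mock in the presence of nilotinib the ratio differed by -0.60 and the groups overlapped (exact permutation test, p = 0.2, adjusted p = 0.2).

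The sequences before the RefSeq start sites of these isozymes are shown because the genes share a reaction and moved apart. Each run is the 250 bases before the start in GRCh38.p14, with capitals marking matches, on either strand, to 4 motifs that were searched: the GATA motif (AGATAA or AGATAG or TGATAA or TGATAG), the CACCC box (CCNCNCCC), the NF-E2 or AP-1 motif (TGANTCA) and the NRF1 motif.
ALAS1, chr3:52197833-52198082, plus strand: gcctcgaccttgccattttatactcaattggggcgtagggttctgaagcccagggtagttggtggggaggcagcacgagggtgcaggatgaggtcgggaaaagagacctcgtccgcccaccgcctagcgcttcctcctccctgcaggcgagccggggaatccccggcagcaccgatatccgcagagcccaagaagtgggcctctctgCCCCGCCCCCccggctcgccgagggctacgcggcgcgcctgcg
ALAS2, chrX:55030978-55031227, minus strand: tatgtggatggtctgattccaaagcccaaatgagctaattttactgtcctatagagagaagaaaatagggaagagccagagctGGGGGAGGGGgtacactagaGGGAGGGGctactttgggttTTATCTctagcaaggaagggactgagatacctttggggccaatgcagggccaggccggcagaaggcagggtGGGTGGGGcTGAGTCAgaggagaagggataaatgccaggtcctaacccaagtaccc
The ALAS2 window held a GATA match beginning 127 bases before the start, an NF-E2 or AP-1 match 47 bases before it and 4 CACCC box matches, of which 2 overlap. The ALAS1 window held 2 overlapping CACCC box matches and no whole match to the other motifs. It ends in letters that could begin an NRF1 match, and bases past the start were not searched. Among the 35116 promoter windows of the same length in the table, 22.3% held a GATA match, 53.4% a CACCC box match, 6.57% an NF-E2 or AP-1 match and 5.07% an NRF1 match. A match describes letters and is not evidence of binding.

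The cytosolic enzymes ALAD, UROS and UROD were all higher in nilotinib libraries. ALAD (ENSG00000148218, GRCh38 chr9:113386317-113401333, minus strand), which makes porphobilinogen, stood at 34.0, 41.4 and 38.7 CPM in mock DMSO, at 142, 166 and 175 CPM in mock nilotinib, at 22.1, 23.3 and 24.4 CPM in hemin DMSO and at 154, 126 and 122 CPM in hemin nilotinib. The nilotinib groups overlapped each other and neither overlapped a DMSO group. Nilotinib raised ALAD 5.74-fold with hemin (log2 2.52 ± 0.14, edgeR adjusted p = 5.15e-10) and 4.23-fold without it (log2 2.08 ± 0.14, edgeR adjusted p = 8.11e-09). Hemin alone lowered it 1.63-fold (log2 -0.71 ± 0.13, edgeR adjusted p = 0.000322).

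UROS (ENSG00000188690, GRCh38 chr10:125784980-125823285, minus strand), the ring-closing enzyme, stood at 45.3, 57.7 and 73.2 CPM in mock DMSO, at 225, 285 and 345 CPM in mock nilotinib, at 26.7, 28.4 and 24.3 CPM in hemin DMSO and at 246, 285 and 324 CPM in hemin nilotinib. The means of the nilotinib groups, 285.1 ± 60.4 and 284.9 ± 38.7 CPM (SD, n = 3), were almost equal, and the hemin DMSO libraries lay under all others. Nilotinib raised UROS 10.8-fold with hemin (log2 3.43 ± 0.20, edgeR adjusted p = 9.18e-10) and 4.85-fold without it (log2 2.28 ± 0.19, edgeR adjusted p = 1e-07). Hemin alone lowered it 2.22-fold (log2 -1.15 ± 0.18, edgeR adjusted p = 7.84e-05).

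UROD (ENSG00000126088, GRCh38 chr1:45012147-45015575, plus strand), the decarboxylase, had the smallest rise with hemin and was the most abundant of the 8 per kilobase in both DMSO groups. It stood at 273, 315 and 334 CPM in mock DMSO, at 754, 827 and 823 CPM in mock nilotinib, at 230, 355 and 241 CPM in hemin DMSO and at 921, 751 and 662 CPM in hemin nilotinib. Hemin DMSO replicate 2 stood above every mock DMSO library whereas the other two stood under all of them. Nilotinib raised UROD 2.82-fold with hemin (log2 1.50 ± 0.18, edgeR adjusted p = 2e-06) and 2.61-fold without it (log2 1.38 ± 0.18, edgeR adjusted p = 1.07e-05). The difference of -0.16 ± 0.17 between hemin DMSO and mock DMSO did not pass the test (95% interval -0.52 to 0.21, edgeR adjusted p = 0.464).

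The mitochondrial enzymes CPOX, PPOX and FECH differed among themselves in their level under hemin alone. CPOX (ENSG00000080819, GRCh38 chr3:98579446-98593723, minus strand) stood at 137, 141 and 133 CPM in mock DMSO, at 251, 345 and 351 CPM in mock nilotinib, at 31.3, 43.6 and 38.3 CPM in hemin DMSO and at 323, 341 and 288 CPM in hemin nilotinib. The gene AC021660.3, on the same strand, covers 5.04% of its exonic bases and had at most 2 counts in any library. How reads that both genes could claim were counted is not given in the sources used here. Hemin DMSO libraries were lowest for CPOX, mock DMSO libraries were intermediate and the nilotinib groups overlapped at the top. CPOX had the largest fall of the 8 under hemin alone, 3.64-fold (log2 -1.86 ± 0.16, edgeR adjusted p = 1.32e-07). Nilotinib raised it 8.42-fold with hemin (log2 3.07 ± 0.16, edgeR adjusted p = 3.91e-10) but only 2.30-fold without it (log2 1.20 ± 0.15, edgeR adjusted p = 1.09e-05), the smallest rise among the 7 genes that rose in mock cultures.

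PPOX (ENSG00000143224, GRCh38 chr1:161166410-161178013, plus strand), the oxidase acting just before iron insertion, stood at 58.6, 69.7 and 75.9 CPM in mock DMSO, at 388, 422 and 432 CPM in mock nilotinib, at 26.4, 37.0 and 24.0 CPM in hemin DMSO and at 328, 356 and 358 CPM in hemin nilotinib. No 2 groups overlapped. Nilotinib raised PPOX 11.9-fold with hemin (log2 3.58 ± 0.17, edgeR adjusted p = 1.41e-10) and 6.09-fold without it (log2 2.61 ± 0.16, edgeR adjusted p = 4.96e-09), and hemin alone lowered it 2.34-fold (log2 -1.22 ± 0.16, edgeR adjusted p = 9.43e-06). Exons of B4GALT3, on the opposite strand, cover 24.3% of the exonic bases of PPOX, and whether counting used strand is not given in the sources used here. B4GALT3 averaged 85.3 and 57.4 CPM in mock DMSO and mock nilotinib and 73.2 and 56.9 CPM in hemin DMSO and hemin nilotinib, lower with nilotinib where PPOX was higher (edgeR log2 -0.36, adjusted p = 0.012 with hemin). The reads that both genes could claim were not separated.

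FECH (ENSG00000066926, GRCh38 chr18:57548283-57586772, minus strand), which inserts iron into the finished ring, stood at 114, 141 and 189 CPM in mock DMSO, at 658, 790 and 837 CPM in mock nilotinib, at 130, 129 and 117 CPM in hemin DMSO and at 839, 871 and 837 CPM in hemin nilotinib. The DMSO groups overlapped and stood under every nilotinib library, and the highest mock nilotinib and lowest hemin nilotinib libraries were level at 837 CPM. Nilotinib raised FECH 6.76-fold with hemin (log2 2.76 ± 0.17, edgeR adjusted p = 2.44e-09) and 5.14-fold without it (log2 2.36 ± 0.17, edgeR adjusted p = 2.52e-08). The difference of -0.24 ± 0.16 between hemin DMSO and mock DMSO did not pass the test (95% interval -0.59 to 0.11, edgeR adjusted p = 0.235). Without mock DMSO replicate 1, whose 114 CPM was the lowest of its group, that difference was -0.46 (edgeR adjusted p = 0.0267).

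Windows of CPOX and of the second RefSeq start of PPOX are shown because both genes fell under hemin alone and hold GATA matches there, with capitals as for the isozymes.
CPOX, chr3:98593612-98593861, minus strand: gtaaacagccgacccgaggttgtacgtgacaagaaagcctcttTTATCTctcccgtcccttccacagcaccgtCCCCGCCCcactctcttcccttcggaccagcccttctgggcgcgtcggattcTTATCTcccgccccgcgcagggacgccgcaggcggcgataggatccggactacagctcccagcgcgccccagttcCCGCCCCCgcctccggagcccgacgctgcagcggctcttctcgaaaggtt
PPOX, chr1:161166396-161166645, plus strand: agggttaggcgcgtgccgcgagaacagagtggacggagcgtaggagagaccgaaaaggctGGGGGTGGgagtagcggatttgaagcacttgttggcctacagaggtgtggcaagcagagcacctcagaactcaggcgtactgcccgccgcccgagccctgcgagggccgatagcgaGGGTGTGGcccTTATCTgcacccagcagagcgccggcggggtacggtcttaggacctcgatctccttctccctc
CPOX held 2 GATA matches, beginning 207 and 125 bases before the start, and this PPOX window held 1, beginning 63 bases before it, whereas the window of the other PPOX start held no match. RefSeq promoters were found for 7 of the 8 genes, not for UROS, with a second start each for ALAD and PPOX, so that 9 windows were searched. GATA matches were in 4 of these windows, of 4 genes (ALAS2, CPOX and a single start each of ALAD and PPOX). CACCC box matches were in 7 windows, of 6 genes. Among all promoter windows the shares were 22.3% and 53.4%. The NF-E2 or AP-1 match was found in ALAS2 only, and no window held a whole match to the NRF1 motif. UROD, which rose with nilotinib, had no match to any of the 4 motifs. FECH, which rose, and ALAS1, which fell, both held CACCC box matches only.

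Counted over the members, nilotinib in the presence of hemin raised 7 of the 8 genes and lowered 1, ALAS1. Among all genes tested 32.4% rose and 31.8% fell in this comparison, so that a change by itself is common here. The median log2 fold change of the 8 was 2.92, against 0.02 over all genes. All 8 had libraries that did not overlap between the groups, as did 63.5% of all genes. Nilotinib without hemin likewise raised 7 and lowered 1, where 20.7% and 21.8% of all genes rose and fell. Its median over the 8 was 2.18 against 0.0039 over all genes, and all 8 did not overlap, beside 61% of all genes. These comparisons share no library, but the spread of each gene was estimated from all 12 libraries. Same-numbered libraries of mock nilotinib and hemin nilotinib also deviated together (correlations 0.26, 0.20 and 0.25). In bulk RNA, more cells of a kind and more RNA per cell cannot be told apart.

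The summed level of erythroid markers was higher in the nilotinib groups, as were 7 of the 8 enzymes, whereas under hemin alone the markers divided. The summed level of the 7 erythroid markers ranged from 882 to 1353 CPM in mock DMSO and from 810.2 to 890.0 CPM in hemin DMSO, against 5892 to 7578 CPM in mock nilotinib and 6949 to 12500 CPM in hemin nilotinib. The mean of each of the 7 was higher with nilotinib, with hemin and without it, but by unequal amounts. From mock DMSO to mock nilotinib, HBZ went from 79.7 to 2910 CPM and HBG1 from 195 to 1637 CPM. GATA1 went from 296 to 376 CPM there, and HBE1 from 1.20 to 1.91 CPM. From mock DMSO to hemin DMSO the means of GATA1, KLF1 and TAL1 were lower (296 and 158 CPM, 284 and 24.0 CPM, 244 and 88.7 CPM), as were those of most enzymes. Those of the 4 globins were higher, at 195 and 349 CPM for HBG1, 17.2 and 33.4 CPM for HBG2, 1.20 and 1.61 CPM for HBE1, and 79.7 and 185 CPM for HBZ. Over the libraries of each group, the summed level of 4 markers of monocytes and granulocytes ranged from 5.61 to 6.91 CPM in mock DMSO, from 0.32 to 0.63 CPM in mock nilotinib, from 8.05 to 15.3 CPM in hemin DMSO and from 0.71 to 1.26 CPM in hemin nilotinib. That of 3 markers of B and T cells ranged from 0 to 0.16, from 0.05 to 0.14, from 0.31 to 0.77 and from 0.06 to 0.26 CPM in the same order, with MS4A1 averaging 0 in the first 3 of these groups. That of 4 markers of epithelium, fibroblasts, endothelium and liver ranged from 84.1 to 90.3, from 53.6 to 70.9, from 73.5 to 99.7 and from 47.9 to 55.7 CPM. The part of these shifts in the enzyme levels was not tested.

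**Figure D1:**
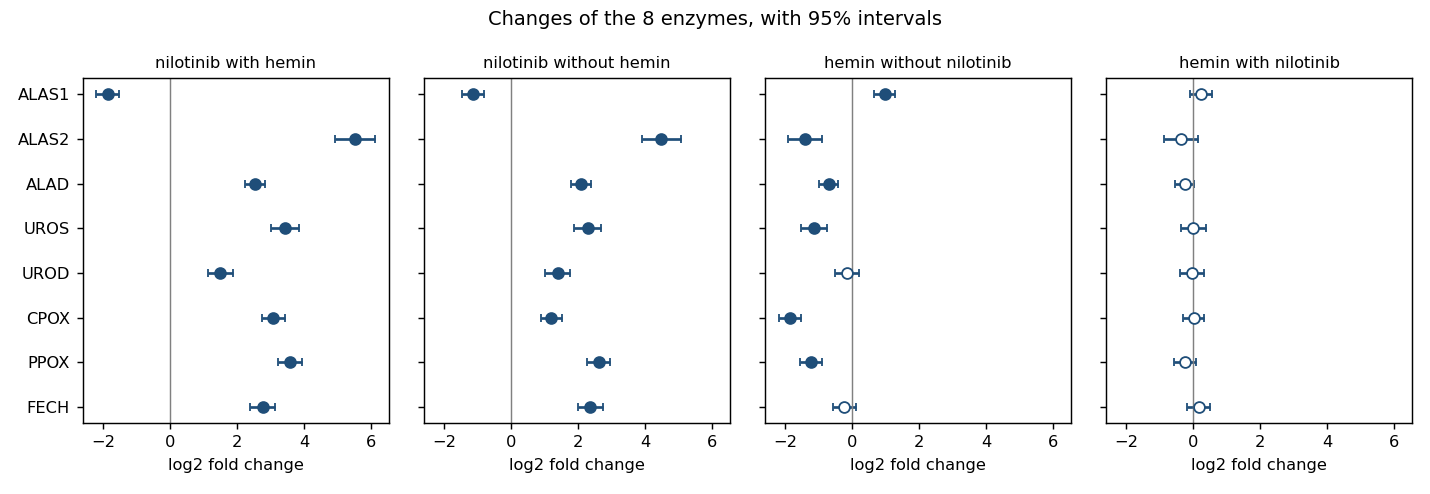
Log2 fold changes of the 8 enzymes with 95% intervals in 4 comparisons; filled points pass an edgeR adjusted p of 0.05 and open points do not. With nilotinib 7 genes rise and ALAS1 falls, whereas hemin in the presence of nilotinib moves none of the 8 past the threshold.

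Hemin without nilotinib moved the pathway the other way. It raised 1 gene, ALAS1, and lowered 5 (ALAS2, ALAD, UROS, CPOX and PPOX), whereas UROD and FECH did not pass the test. Of all genes 25.7% rose and 27.8% fell. The median of the 8 was -0.93 against -0.05 over all genes. The libraries of 6 members did not overlap, as for 62.7% of all genes. This comparison uses the DMSO libraries that also serve the nilotinib comparisons, so its values are not independent of them.

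In the presence of nilotinib, hemin changed none of the 8 enzymes past the threshold by edgeR, by DESeq2 or by limma on FPKM, and 0 of the 8 had an unadjusted edgeR p under 0.05. Only 3.52% of all genes rose and 2.28% fell in this comparison. Log2 fold changes ran from -0.37 ± 0.23 for ALAS2 (95% interval -0.87 to 0.13, edgeR adjusted p = 0.39) to 0.23 ± 0.15 for ALAS1 (95% interval -0.09 to 0.56, edgeR adjusted p = 0.412), with a median of -0.02. Differences inside these intervals were not detectable here. The libraries of 2 members did not overlap, PPOX being lower with hemin (log2 -0.25, edgeR adjusted p = 0.365) and FECH higher (log2 0.16, edgeR adjusted p = 0.624), where 23.3% of all genes had libraries that did not overlap. The FECH groups were set apart only beyond the digits shown, as their nearest libraries both stood at 836.5 CPM. UROS and CPOX were nearly equal in the groups, at log2 -0.00057 and 0.0091, and their signs turned with other settings. With the replicate number as a block, none of the 8 passed either.

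The effect of nilotinib differed between hemin and mock cultures for 5 of the 8 genes, as tested by the interaction term. The length of exposure to nilotinib may differ between these cultures, so its part and that of hemin cannot be told apart. It was larger upward with hemin for 4, against 17.1% of all genes, and more strongly downward for 1, against 13% of all genes. The difference was widest for CPOX at 1.87 ± 0.22 (log2, edgeR adjusted p = 2.17e-05), and it was 1.15 ± 0.26 for UROS (edgeR adjusted p = 0.00356). For PPOX it was 0.97 ± 0.22 (edgeR adjusted p = 0.00374). For ALAS2 it was 1.04 ± 0.33 (edgeR adjusted p = 0.0273), and this call was lost without either of mock DMSO replicates 2 and 3, without mock nilotinib replicate 1 or without either of hemin DMSO replicates 1 and 3 (edgeR adjusted p from 0.0526 to 0.0743), and with limma on FPKM (adjusted p = 0.0911 and 0.0799). For ALAS1 it was -0.73 ± 0.22 (edgeR adjusted p = 0.0176), and this call was lost without mock DMSO replicate 1 (edgeR adjusted p = 0.0785), without mock nilotinib replicate 1 (0.055) or 2 (0.0524), and with library totals alone (0.0786). ALAD (0.44 ± 0.19, edgeR adjusted p = 0.0822), FECH (0.39 ± 0.23, edgeR adjusted p = 0.214) and UROD (0.11 ± 0.24, edgeR adjusted p = 0.761) did not pass. ALAD passed without mock DMSO replicate 1 (edgeR adjusted p = 0.0429) or hemin nilotinib replicate 3 (0.0398), and FECH without mock DMSO replicate 1 (0.0453), and both passed with library totals alone (0.00885 and 0.0354). The levels show where the differences lay. The nilotinib groups were alike for CPOX, at 315.5 and 317.5 CPM, and the DMSO groups were apart, at 137.2 ± 4.2 CPM in mock and 37.7 ± 6.2 CPM in hemin cultures (SD, n = 3).

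Nilotinib alone was also set against hemin alone, a comparison in which the drug and the inducer both differ. The time of collection may differ there too. It gave 7 genes higher and ALAS1 lower with nilotinib, where 32.5% and 33.4% of all genes were higher and lower and 70.2% did not overlap. ALAS2 was 59.2-fold higher (log2 5.89 ± 0.29, edgeR adjusted p = 1.3e-10) and PPOX 14.2-fold higher (log2 3.83 ± 0.17, edgeR adjusted p = 6.01e-11), whereas ALAS1 was 4.30-fold lower (log2 -2.10 ± 0.16, edgeR adjusted p = 9.93e-09).

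The order of the enzymes by level changed with treatment. Per kilobase, mock DMSO cells had UROD highest at 106 ± 11 CPM (SD, n = 3), then ALAS2 at 62.9 ± 22.0, CPOX at 42.5 ± 1.3 and FECH at 33.1 ± 8.5, where ALAS2 overlapped CPOX and CPOX overlapped FECH. PPOX, ALAS1, ALAD and UROS followed at 14.8, 11.2, 7.63 and 6.16, and the last 2 overlapped. In hemin DMSO cells UROD was again highest at 94.7 ± 23.7, and FECH (28.1 ± 1.6), ALAS2 (23.7 ± 3.6) and ALAS1 (21.9 ± 2.7) overlapped one with the next. UROS was lowest there at 2.78 ± 0.22. In mock nilotinib cells ALAS2 led at 1404 ± 237, ahead of UROD at 276 ± 14 and FECH at 170 ± 21, and ALAS1 was last at 5.10 ± 0.75. CPOX overlapped PPOX there, and ALAD overlapped UROS. In hemin nilotinib cells ALAS2 stood at 1087 ± 191, UROD at 268 ± 45 and FECH at 190 ± 4, and ALAS1 was last at 5.99 ± 0.78, with UROS and ALAD alone overlapping. The distance from the highest to the lowest mean was 17.1-fold in mock DMSO, 34.1-fold in hemin DMSO, 275-fold in mock nilotinib and 181-fold in hemin nilotinib. These distances and the order within a group rest on the annotated gene lengths.

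As a share of the summed level per kilobase of the 8, ALAS2 made up 21.7% ± 4.9 in mock DMSO and 12.3% ± 0.9 in hemin DMSO, against 66.5% ± 2.0 in mock nilotinib and 60.8% ± 2.7 in hemin nilotinib (SD, n = 3). ALAS1 made up 4.0% ± 0.4, 11.4% ± 0.5, 0.25% ± 0.07 and 0.34% ± 0.09 in the same order. The share of UROD was 37.4% ± 2.3 in mock DMSO and 48.5% ± 3.7 in hemin DMSO, against 13.2% ± 1.3 and 15.0% ± 0.6 with nilotinib, although its own level rose. CPOX held 15.2% ± 2.7 in mock DMSO but 6.04% ± 0.67 in hemin DMSO. Shares sum to the whole, so a larger share of ALAS2 leaves less for the others. Their sizes rest on the annotated gene lengths as well.

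**Figure D2:**
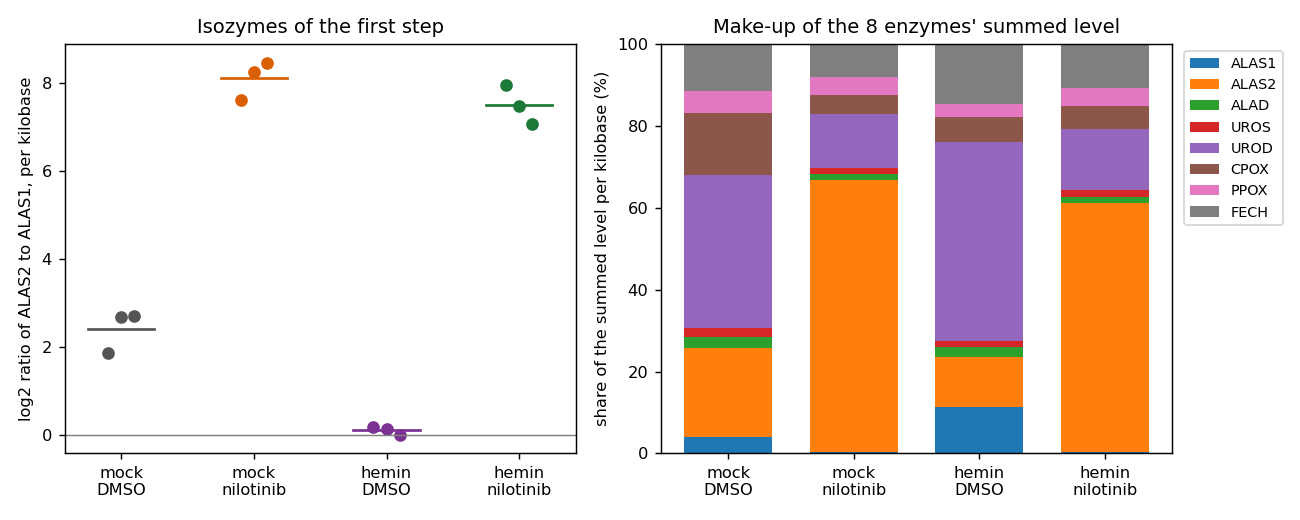
Left, log2 ratio of ALAS2 to ALAS1 per kilobase in each library, with group means as bars. Right, mean share (%) of each enzyme in the summed level per kilobase of the 8. The ratio is near 0 in hemin DMSO and above 7 in every nilotinib library, where ALAS2 takes 60.8% to 66.5% of the sum.

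Across the 12 libraries the log2 levels of ALAS1 ran against those of the other 7, with Pearson's r from -0.97 (CPOX) to -0.90 (UROD), while among the other 7 r ran from 0.87 (CPOX with FECH) to 0.996 (ALAS2 with ALAD). These values describe libraries that fall into treated and untreated groups and carry no test. Among 10932 protein-coding genes with enough counts, those most like ALAS1 were RYBP (r = 0.991), DUSP5 (0.988) and ATE1 (0.988). Those most like ALAS2 were GALNT10 (0.997), SOD3 (0.996) and the member ALAD (0.996), and those most like FECH were ART4 (0.996), SH3BGRL2 (0.995) and PPT2 (0.995).

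Genes that supply and move the pathway's substrates did not all follow it. Of 12 genes of substrate supply and mitochondrial transport, nilotinib with hemin raised 8 and lowered 3 (median log2 0.81), beside 32.4% and 31.8% of all genes, and nilotinib without hemin raised 7 and lowered 4 (median 0.86), beside 20.7% and 21.8%. SLC25A37, the mitoferrin that brings iron into the mitochondrion, stood at 889 ± 182 CPM in mock DMSO, 7623 ± 1951 in mock nilotinib, 167 ± 28 in hemin DMSO and 7362 ± 1226 in hemin nilotinib (SD, n = 3), a 44.1-fold rise with hemin present (log2 5.46 ± 0.27, edgeR adjusted p = 1.66e-10). ABCB10, a transporter of the inner membrane that binds mitoferrin, rose 8.76-fold (log2 3.13 ± 0.21, edgeR adjusted p = 3.72e-09), and TMEM14C, which is needed to bring protoporphyrinogen into the matrix, rose 1.92-fold (log2 0.94 ± 0.17, edgeR adjusted p = 0.000117). SLC25A38, the carrier that brings in glycine for ALAS2, did not rise. It averaged 66.9 CPM in mock DMSO, 41.2 in mock nilotinib, 44.4 in hemin DMSO and 36.5 in hemin nilotinib, a fall without hemin (log2 -0.70 ± 0.14, edgeR adjusted p = 0.00094) and -0.29 ± 0.14 with it (edgeR adjusted p = 0.0912). SUCLG1, a subunit of succinyl-CoA synthetase, fell by 0.84 with hemin present and PGRMC1, a heme-binding partner of FECH, fell by 0.97 (edgeR adjusted p = 0.00067 and 0.000453). Hemin without nilotinib raised 1 and lowered 5 of the 12 (25.7% and 27.8% of all genes), SLC25A37 among the latter (log2 -2.41 ± 0.23, edgeR adjusted p = 4.81e-07), and hemin with nilotinib moved 0 of the 12. The interaction term passed for SLC25A37 (2.36 ± 0.31, edgeR adjusted p = 6.99e-05) and ABCB10 (1.07 ± 0.27, edgeR adjusted p = 0.00747), 2 of the 12, which is near the 17.1% of all genes.

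Of 8 genes that act on aminolevulinate synthase or on iron sensing, 7 were tested, PPARGC1A being too low. Nilotinib with hemin raised 2 and lowered 2 of these (median log2 0.24), near the 32.4% and 31.8% of all genes. CLPX, the unfoldase that activates ALAS protein and helps degrade it, did not pass (log2 0.24 ± 0.14, edgeR adjusted p = 0.142). The proteases CLPP and LONP1 fell by 1.11 and 1.80 (edgeR adjusted p = 1.2e-06 and 5.67e-08). BACH1, a heme-binding repressor, rose 2.75-fold (log2 1.46 ± 0.16, edgeR adjusted p = 9.62e-07), and ACO1, the iron-sensing aconitase, rose 1.34-fold (log2 0.42 ± 0.15, edgeR adjusted p = 0.0203), although its libraries overlapped. Without hemin nilotinib raised 1 and lowered 2 (20.7% and 21.8% of all genes), and hemin without nilotinib raised 1 and lowered 2 (25.7% and 27.8% of all genes). The interaction term passed for BACH1 alone of the 7 (0.76 ± 0.22, edgeR adjusted p = 0.0176), beside 17.1% of all genes.

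Of 9 genes of iron-sulfur cluster assembly, the process that also serves FECH, nilotinib with hemin raised 4 and lowered 5 (median log2 -0.67), beside 32.4% and 31.8% of all genes. GLRX5, whose loss causes sideroblastic anemia, rose 3.15-fold (log2 1.66 ± 0.19, edgeR adjusted p = 1.88e-06). ISCA1, an assembly factor, was at 15.8 ± 0.9 CPM in mock DMSO, 25.3 ± 1.7 in mock nilotinib, 8.83 ± 1.48 in hemin DMSO and 25.1 ± 2.2 in hemin nilotinib (SD, n = 3), a 2.84-fold rise with hemin present (log2 1.51 ± 0.15, edgeR adjusted p = 4.14e-07), and its interaction term passed (0.83 ± 0.21, edgeR adjusted p = 0.00822). Of the 9, the interaction term passed upward for 2, ISCA1 included, and downward for 1, beside 17.1% and 13% of all genes. In nilotinib with hemin, the chaperone HSPA9 and its partner HSCB fell by log2 2.09 and 1.69 (edgeR adjusted p = 5.92e-08 and 1.28e-05). Without hemin, nilotinib raised 2 and lowered 3 of the 9 (20.7% and 21.8% of all genes), hemin without nilotinib raised 3 and lowered 4 (25.7% and 27.8%), and hemin with nilotinib raised 1 (3.52%), HSPA9 (log2 0.94 ± 0.17, edgeR adjusted p = 0.00702).

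Of 8 genes of heme transport and breakdown 7 were tested, FLVCR2 being too low, and nilotinib with hemin raised 4 and lowered 2 (median log2 0.95), beside 32.4% and 31.8% of all genes. Nilotinib without hemin raised 3 and lowered 1 (20.7% and 21.8% of all genes), hemin without nilotinib raised 1, HMOX1, and lowered 4 (25.7% and 27.8%), and hemin with nilotinib raised HMOX1 alone (3.52%). HMOX1, the inducible oxygenase that breaks heme down, was near the limit of detection in mock cultures, with 3 to 7 counts in mock DMSO libraries and 0 to 2 in mock nilotinib libraries. It averaged 48.2 ± 21.0 CPM (SD, n = 3) with hemin and DMSO but 1.50 ± 0.96 CPM with hemin and nilotinib, 31.8-fold lower with nilotinib (log2 -4.99 ± 0.44, edgeR adjusted p = 9.14e-08). HMOX2, the constitutive form, fell by log2 0.57 in nilotinib with hemin (edgeR adjusted p = 0.0257), with libraries that overlapped. In nilotinib without hemin it changed by log2 -1.22 ± 0.21 (edgeR adjusted p = 0.000208), and its libraries did not overlap. With hemin present, nilotinib raised the heme exporter FLVCR1 1.93-fold (log2 0.95 ± 0.13, edgeR adjusted p = 9.57e-06). There ABCG2, a porphyrin exporter, rose 15.1-fold from a low level (0.60 to 9.16 CPM, log2 3.91 ± 0.25, edgeR adjusted p = 3.24e-09). BLVRB, a biliverdin reductase, rose 2.12-fold (log2 1.08 ± 0.17, edgeR adjusted p = 3.7e-05). SLC48A1, a heme transporter of endosomes, rose 2.41-fold with hemin (edgeR adjusted p = 6.56e-06) but did not pass without it (log2 0.03 ± 0.16, edgeR adjusted p = 0.896). Its interaction term passed (1.24 ± 0.23, edgeR adjusted p = 0.00111), the only upward call among the 7 tested, beside 17.1% of all genes. Of the 3 genes that turn heme into heme a or attach it to cytochrome c, nilotinib with hemin raised COX15 (log2 0.36 ± 0.13, edgeR adjusted p = 0.0239). It lowered HCCS (log2 -0.58 ± 0.14, edgeR adjusted p = 0.00164) and COX10 did not pass, beside 32.4% and 31.8% of all genes. Nilotinib without hemin lowered COX10 alone (log2 -1.05 ± 0.22, edgeR adjusted p = 0.00103), beside 21.8% of all genes. Hemin without nilotinib lowered COX10 (log2 -1.28 ± 0.22, edgeR adjusted p = 0.000146) and COX15, beside 27.8%. The interaction term passed upward for COX10 alone (edgeR adjusted p = 0.0213), beside 17.1%.

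**Figure D3:**
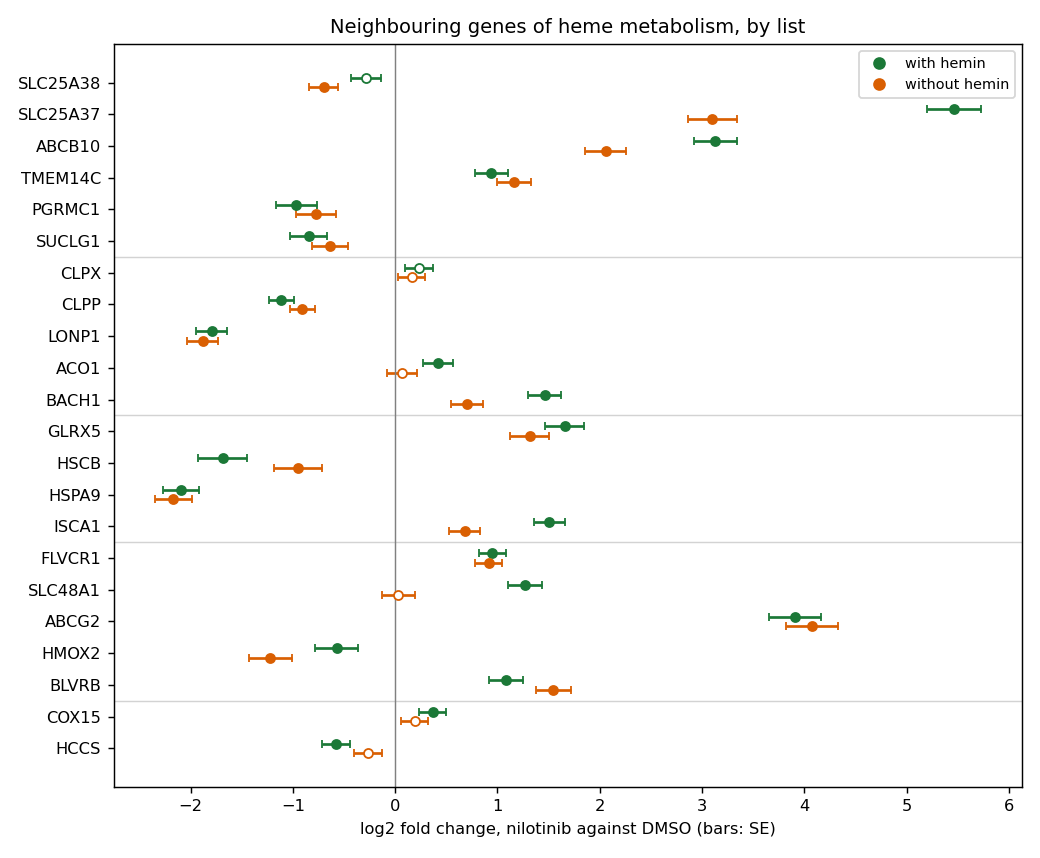
Log2 fold changes (nilotinib against DMSO) of named neighbouring genes with hemin and without it; bars are SE, filled points pass an edgeR adjusted p of 0.05, and lines divide the lists. SLC25A37 has the largest rise with hemin (5.46), while SLC25A38, next to it, is under 0 in both. HMOX1 is left out because mock libraries held 7 counts or fewer.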

How the data were processed

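RNA-seq of K562 was analysed in 12 libraries (150-base paired-end reads of total RNA; 33457078 to 50506990 counts each). The authors deposited raw counts per gene and FPKM values per library. The submitters' processing notes name GRCh38.p12 and DESeq2; the aligner, the counter and whether strand was used are not given in the sources used here. A table of the authors' group means was not used. From the counts, edgeR 4.0.16 (TMM factors, filterByExpr with minimum counts of 10 and 15, quasi-likelihood test over 4 group means, Benjamini-Hochberg adjustment) gave every comparison and the interaction term. CPM used the same factors, and the ratio of ALAS2 to ALAS1 was tested with a two-sided exact permutation test (scipy 1.17.1).

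The members, gene lists and motifs were chosen with earlier results of these data known. Named neighbouring genes were those with the 2 largest rises and the 2 largest falls past the threshold in nilotinib with hemin in each list, plus SLC25A38, SLC25A37, ABCB10, TMEM14C, CLPX, FLVCR1, HMOX1 and BLVRB; the 3 genes most like ALAS1, ALAS2 and FECH were ranked by Pearson's r of log2 CPM (prior count 2, mean of at least 100 counts). Promoters come from RefSeq (GRCh38.p14), and exon overlaps from GENCODE 29, whose positions for the 8 genes equal those in the files.

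Alternatives were DESeq2 1.42.0, limma 3.58.1 on log2(FPKM + 1) and log2(FPKM + 0.1), other scaling, no filter, fewer groups, a replicate block and each library left out. Replicates differed by more than counting noise. The main fit took the libraries as unpaired, and the replicate number entered only as a block among the alternatives. Same-numbered libraries of mock nilotinib and hemin nilotinib deviated together (correlations 0.26, 0.20 and 0.25). Between other groups these correlations ran from -0.080 to 0.12, apart from 0.23 for replicate 3 of hemin DMSO and hemin nilotinib. These values come from the data, not from the labels, and libraries of different number were not compared. The tests were tried on simulated data. Some genes of the marker and neighbouring lists are not reported here, and the lists' counts, sums and ranks leave them out.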

Additional observations from a re-analysis of the deposited data

Results flagged for a closer look

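For 5 of the 8 enzymes the effect of nilotinib differed between hemin and mock cultures. This was a test of the difference itself, the interaction term of edgeR's quasi-likelihood test. The part of hemin and that of the length of exposure to nilotinib cannot be told apart in it. The nilotinib effect with hemin minus that without it was 1.87 (log2) for CPOX, 1.15 for UROS, 1.04 for ALAS2 and 0.97 for PPOX, and it was -0.73 for ALAS1. The CPOX, UROS and PPOX calls held under each of the 19 alternatives run for them, whereas those of ALAS2 and ALAS1 were lost under 7 and 4 of the 19.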

How the results depend on the processing

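Of 720 values of single enzymes under the alternatives, 687 kept their direction and their side of the threshold, 11 lost and 8 gained a call, and 14 turned in sign, none of the 14 past the threshold. All calls of the 8 enzymes held in nilotinib with and without hemin and in nilotinib alone against hemin alone. With library totals alone the median of all genes shifted to 0.20 in nilotinib with hemin, -0.29 in hemin without nilotinib, 0.27 in the interaction and 0.20 in nilotinib alone against hemin alone. The median of the 8 enzymes then became -1.16 in hemin without nilotinib, 0.92 in the interaction and 3.14 in nilotinib alone against hemin alone, and UROD (-0.41) and FECH (-0.47) passed in hemin without nilotinib. Leaving out each library in turn gave 3 to 6 enzymes past the threshold in the interaction (3 without mock nilotinib replicate 1), 6 to 7 in hemin without nilotinib and 0 in hemin with nilotinib. In hemin with nilotinib, CPOX turned to -0.0021 with RLE factors, -0.021 with library totals, -0.0050 with DESeq2, and -0.13, -0.0063 and -0.068 without mock nilotinib replicate 1, hemin nilotinib replicate 1 and hemin nilotinib replicate 2. UROS turned to 0.0098 with only the groups compared, 0.13 without mock nilotinib replicate 3 and to 0.092 when hemin nilotinib replicate 1 was left out, and UROD to 0.054 without hemin nilotinib replicate 3. The interaction of UROD turned to -0.011 when hemin DMSO replicate 1 was left out and to -0.0098 when hemin nilotinib replicate 1 was. With each library left out in turn, these values ran from -0.13 to 0.069 for CPOX, from -0.15 to 0.13 for UROS and from -0.18 to 0.054 for UROD in hemin with nilotinib, and from -0.011 to 0.33 for the interaction of UROD. With the replicate number as a block UROS stood at 0.0098 in hemin with nilotinib, and at 0.021 with the block and only the groups compared, an alternative chosen after seeing the data; the block changed no call of the 8. Apart from what the setting itself changes, the cause was not tested. With 3 libraries a group, an exact permutation test cannot go below 0.1.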
